A study of Homo sapiens with 4 samples.

Results

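The contactins are a family of 6 neuronal adhesion molecules, CNTN1 to CNTN6, and all 6 were measured among the 36601 features of the deposited matrices. They were taken by symbol and not through a filter on their values, but earlier results of these data were known when the family was chosen. Their transcripts were followed across the cell classes, transmitter identities, treatments and days of human enteric ganglioids. These 3D aggregates of enteric neurons and precursors were differentiated in suspension from H9, an established human embryonic stem cell line. Nuclei of 2 control and 2 PP121-treated samples were sequenced by snRNA-seq. PP121 inhibits receptor tyrosine kinases and was given at 2 µM between days 15 and 20. Each sample was a pool of ganglioids, and all came from the same cell line, so p-values speak for these few samples only. Those of the fits also borrow their error from other genes, so they do not measure the spread between samples alone. The deposited annotation dated replicate 1 of each group to day 42 and replicate 2 to day 38, and each of these days held 1 sample of each treatment. The labels number the same samples as differentiation replicates, so day and differentiation cannot be told apart. The study's text gives a single day for all ganglioids sequenced, so the deposited days are used as names of the replicate pairs and not as ages.

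Contactins are anchored in the outer leaflet of the cell membrane by a glycosylphosphatidylinositol tail and carry immunoglobulin-like and fibronectin type III domains. They act in axon growth, fasciculation, synapse formation and the organization of myelinated axons, mostly through partners in the same or the opposite membrane, such as the CNTNAP proteins, the receptor phosphatases PTPRZ1 and PTPRG, members of the L1 family and the amyloid precursor protein APP. In the gut, neurons of the enteric nervous system extend axons between ganglia and into the muscle, and the nitric oxide-producing (NO or nitrergic) neurons among them relax the muscle.

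The 6 genes differ in size and place. In the GENCODE v29 annotation of GRCh38, CNTN4 spans 959 kb of chromosome 3 (2098813 to 3057956, plus strand) and CNTN6 lies on the same strand of the same chromosome (1092576 to 1404217), ending 695 kb before CNTN4 begins. CNTN3 is on the minus strand of chromosome 3 (74262568 to 74521140). CNTN1 is on chromosome 12 (40692442 to 41072418), CNTN2 on chromosome 1 (205042937 to 205078284) and CNTN5, the longest with 1338 kb, on chromosome 11 (99020953 to 100358885), each on the plus strand. CNTN2 spans only 35.3 kb, of which 50.3% is exon, against 0.680 to 1.98% in the others.

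CNTN4 is the contactin that most of the results below turn on, so the sequence around its starts is shown. RefSeq (GRCh38.p14) lists starts of 2 kinds for it, and each window runs from 250 bases before to 50 bases after a start, 5′ to 3′ on the plus strand. Capitals mark matches to CANNTG, the E-box letters, which read the same on both strands.
CNTN4 upstream start, chr3:2098616-2098915: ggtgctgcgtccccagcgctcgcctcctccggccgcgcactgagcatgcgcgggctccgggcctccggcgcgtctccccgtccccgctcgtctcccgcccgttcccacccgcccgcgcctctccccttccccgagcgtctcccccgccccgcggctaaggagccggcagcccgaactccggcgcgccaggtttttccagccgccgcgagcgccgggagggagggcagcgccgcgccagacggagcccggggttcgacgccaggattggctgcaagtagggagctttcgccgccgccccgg
CNTN4 internal start, chr3:2891970-2892269: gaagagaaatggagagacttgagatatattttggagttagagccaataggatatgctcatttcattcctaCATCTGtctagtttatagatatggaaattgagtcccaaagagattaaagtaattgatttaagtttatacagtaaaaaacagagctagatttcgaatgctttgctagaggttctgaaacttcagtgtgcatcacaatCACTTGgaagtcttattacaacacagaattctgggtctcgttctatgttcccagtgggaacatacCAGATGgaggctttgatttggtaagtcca
The upstream window had 77.3% G and C bases, 46 CpG dinucleotides and 0 E-box matches. The internal window had 36.7% G and C, 2 CpG dinucleotides and 3 E-box matches. Over all 35116 RefSeq windows of the same length, the median was 58.7% G and C and 14 CpG dinucleotides, and 68.7% held the E-box letters. The deposited counts are per gene, so UMIs (unique molecular identifiers, each counting 1 transcript molecule) of the 2 starts could not be separated.

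The authors annotated 14812 of the 25306 deposited nuclei, and only those were used. They numbered 2912 to 4587 per sample with 23348045 to 34123759 UMIs per sample and a median of 6289 to 7071 UMIs per nucleus, and 51192 of the UMIs were contactin transcripts. Pairs of libraries shared 0 to 8 annotated barcodes. Neurons held the neuronal markers at 1740 to 2263 CPM summed over 10 genes, where CPM is UMIs of a gene per 1000000 UMIs of the sum, against 277 to 1535 in the other classes. The mesenchymal class held its 10 markers at 2890 to 3517 CPM, against at most 239 CPM elsewhere. In the 92 nuclei of the class deposited as epithelial, 8 epithelial markers summed to 99.7, 96.4, 92.8 and 124 CPM in control replicates 1 and 2, then PP121 replicates 1 and 2. Of the 6 classes it was highest in 3 samples; mesenchymal nuclei were at 255 CPM, from 40 nuclei, in the first and at 55.0, 87.5 and 26.8 CPM in the others, and neurons at 19.8 to 31.2 CPM. ESRP1 was at 0 in all 4 samples of the class and KRT19 in 3, and its neuronal markers stood at 709 to 1535 CPM. The name is thus only partly borne out by the markers, so it is called the deposited epithelial class, and its leading genes by fold over the other classes were SPON1, AC012405.1, TTC6, SULF1 and NTN1. Of the nuclei deposited as enteric neurons, 0.695 and 1.28% in the controls, against 7.04 and 6.25% with PP121, carried a non-neuronal identity.

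Each contactin had its own place among the 6 deposited classes. CNTN1, CNTN2 and CNTN5 were highest in enteric neurons by the median over samples, CNTN4 in the deposited epithelial class, and CNTN3 and CNTN6 in the class deposited as unknown. Below, levels are CPM of counts summed over the nuclei of a class, given in the order control replicates 1 and 2, then PP121 replicates 1 and 2. The classes were made by clustering these same counts, so the levels are a description with no test. A sum cannot tell more nuclei with a transcript from more transcript per nucleus.

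**Figure D1:**
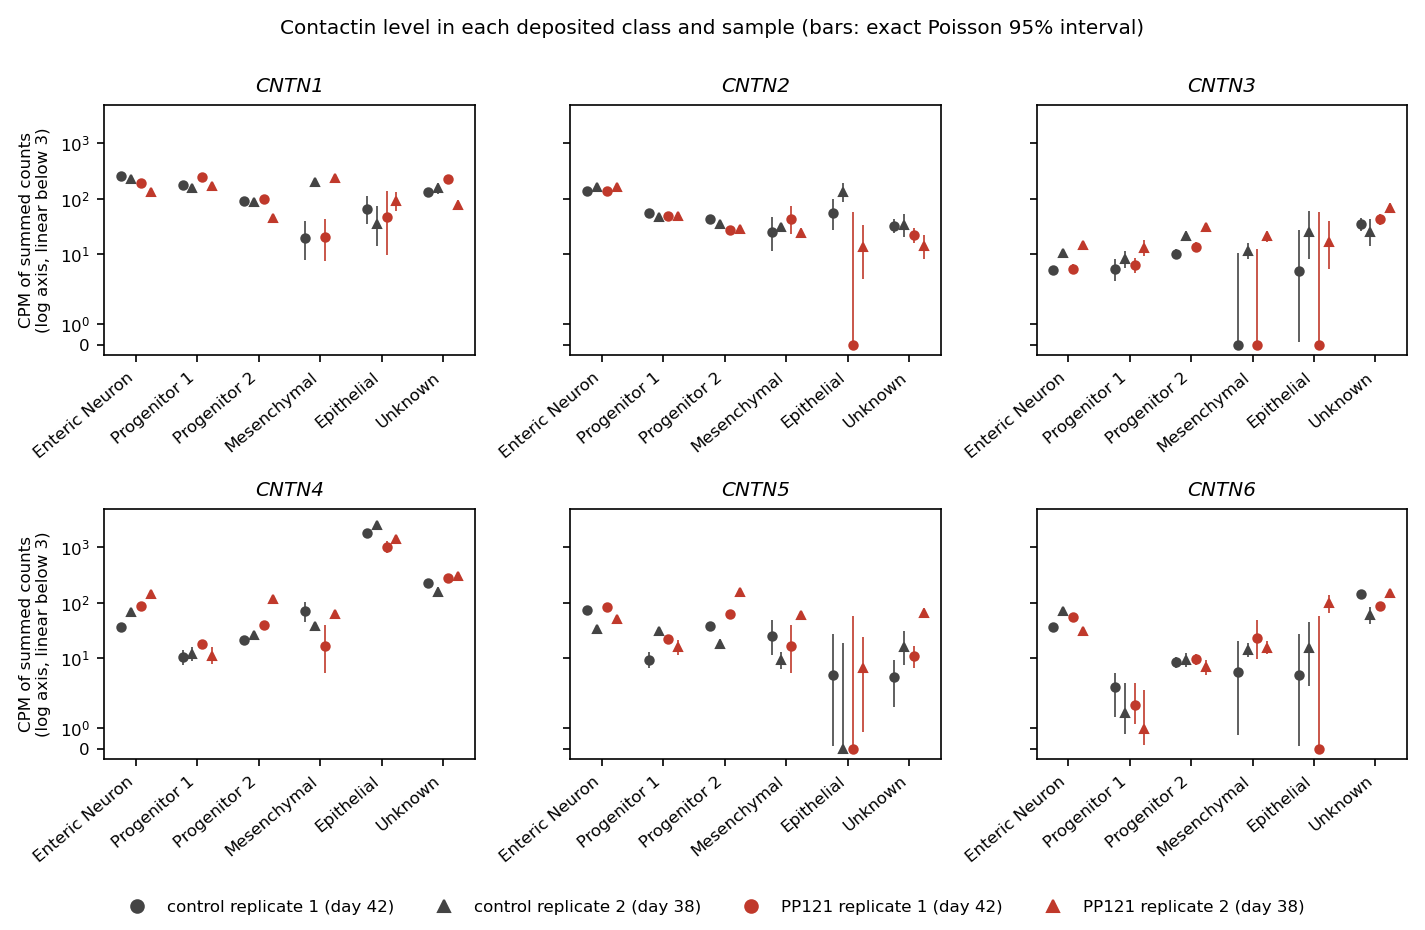
CPM of summed counts (vertical, log axis that is linear below 3) of each contactin in the 6 deposited classes (horizontal), 1 point per sample, with exact Poisson 95% intervals that cover counting error only. CNTN2 was highest in enteric neurons in every sample, while CNTN4 reached 1021 to 2517 CPM in the deposited epithelial class, above every other class.

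CNTN1, an axonal contactin that forms paranodal junctions with CNTNAP1, measured 263, 225, 189 and 134 CPM in enteric neurons. The order of its medians ran on through progenitor 1, the unknown class, the mesenchymal class, progenitor 2 and the deposited epithelial class, and the ranges of every pair of neighbours in that order overlapped. In mesenchymal nuclei CNTN1 measured 19.6, 201, 20.2 and 241 CPM. Both day 38 samples were thus about as high as neurons, and both day 42 samples, with only 40 and 33 mesenchymal nuclei and 7 and 6 CNTN1 UMIs, were low. The mesenchymal markers were high on both days.

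CNTN2, known as TAG-1 and present on growing axons and at juxtaparanodes with CNTNAP2, was highest in neurons in every sample. It measured 139, 165, 141 and 160 CPM in neurons, and no other class overlapped that range in its order. Progenitor 1 came next with 46.9 to 55.6 CPM. The other 4 classes had medians of 27.3 to 34.1 CPM and overlapped one another. The deposited epithelial class ranged most, at 54.8, 132, 0 and 13.4 CPM, and in control replicate 2 it was above progenitor 1.

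CNTN5, which is known from auditory and visual pathways, measured 73.0, 33.6, 82.5 and 51.6 CPM in neurons. Its range there overlapped that of progenitor 2, at 37.7, 18.3, 62.4 and 156 CPM. The last sample, PP121 replicate 2, was high in progenitor 2 and lower in neurons.

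CNTN6, a Notch ligand in cultured cells, measured 36.6, 70.8, 56.4 and 31.4 CPM in neurons and 147, 59.5, 87.6 and 148 CPM in the unknown class, and these ranges overlapped. In progenitor 1 it was nearly absent, at 0.985 to 3.03 CPM from 3 to 15 UMIs per sample. Progenitor 2 stood apart above that, at 6.95 to 9.71 CPM.

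CNTN3 was the lowest of the family in neurons. It measured 5.12, 10.5, 5.52 and 14.6 CPM in neurons and 34.9, 25.2, 43.3 and 68.4 CPM in the unknown class. In mesenchymal nuclei of both day 42 samples it had 0 UMIs, so a level of up to 8.41 and 10.1 CPM remains possible there for counting error alone.

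CNTN4, which guides olfactory and visual axons and binds APP and PTPRG, had the widest spread between classes. In the deposited epithelial class it measured 1789, 2517, 1021 and 1426 CPM, from 66 to 496 UMIs in 9 to 37 nuclei per sample. Between 88.0 and 100% of those nuclei held at least 1 CNTN4 UMI. The unknown class followed at 228, 157, 278 and 306 CPM, neurons at 36.2, 68.3, 88.6 and 145 CPM, and progenitor 1 was lowest at 10.4, 12.0, 17.8 and 11.2 CPM. The ranges of the deposited epithelial class and of the unknown class overlapped with no class below them. CNTN4 ranked 8 among all genes by fold in the deposited epithelial class, so it is one of the genes that set these nuclei apart, and the fold is not independent of the clustering.

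Levels of different contactins were compared per length. In neurons, the median CPM per kb of gene span was 4.26 for CNTN2, 0.545 for CNTN1 and 0.149 for CNTN6, against 0.0309 to 0.0818 for the other 3. Per kb of exon the order changed, with 27.7 for CNTN1 ahead of 8.60 for CNTN4 and 8.46 for CNTN2. Which length fits depends on whether intronic reads were counted, which is not stated in the sources used here. CNTN2 was 7.94 times CNTN1 per kb of span and 0.311 times CNTN1 per kb of exon, so no order of CNTN1 and CNTN2 is given. In neurons CNTN3 was the lowest on both scales.

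For shares of nuclei, counts were drawn down to 2000 UMIs per nucleus. Nuclei below that depth, 2 to 30 per sample among neurons or progenitors, were left out. CNTN1 was then detected in 33.0, 27.4, 24.9 and 18.0% of neurons, CNTN2 in 18.5, 21.0, 19.2 and 22.2% and CNTN4 in 4.71, 8.26, 10.1 and 13.4%. At this depth 45.6 to 49.5% of neurons and 66.8 to 73.3% of progenitors held a UMI of none of the 6. The share of neurons with 2 or more contactins was 10.8 to 13.5%. Without thinning, CNTN1 was seen in 37.8 to 59.0% of neurons and CNTN2, a neuronal gene, still in 9.09 to 20.0% of mesenchymal nuclei. The median depth was 7227 to 8401 UMIs in mesenchymal and 7210 to 8102 UMIs in neuronal nuclei.

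Some pairs of contactins were found in the same neurons more or less often than their single shares would give. The observed share of neurons with both members was divided by the product of the single shares, so 1 stands for independence. For CNTN4 and CNTN6, neighbours on chromosome 3, the ratio was 2.63 to 3.53 in the 4 samples, from 12 to 31 neurons with both. CNTN1 and CNTN6 were at 1.04 to 1.62. CNTN1 and CNTN2, the most often detected, were found together less often than the product, at 0.717 to 0.773 from 30 to 100 neurons. CNTN2 also stood below 1 in all 4 samples with CNTN5 (0.329 to 0.944, from 5 to 11 neurons) and with CNTN6 (0.357 to 0.986). So did CNTN5 with CNTN6 (0.327 to 0.708, from 1 to 5 neurons) and CNTN1 with CNTN5 (0.788 to 0.929). At 4000 UMIs per nucleus the former stayed at 0.468 to 0.860 and the latter ran from 0.824 to 1.11. CNTN4 and CNTN5 were at 1.31 to 1.56, but at 4000 UMIs per nucleus they ranged from 0.740 to 1.53, whereas CNTN4 and CNTN6 stayed at 1.89 to 3.06 there. These ratios are descriptions and carry no test.

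The main question of the study's design was what PP121 changed. In enteric neurons, CNTN4 was higher and CNTN1 lower in the PP121 sample of each replicate pair. CNTN4 measured 36.2 and 68.3 CPM in the controls, against 88.6 and 145 CPM with PP121, or 2.45-fold and 2.13-fold within pairs. CNTN1 measured 263 and 225 CPM in control and 189 and 134 CPM in PP121 samples, or 0.719 and 0.596 of control within pairs. The control and PP121 ranges of those 2 genes did not overlap, and those of the other 4 contactins did, a share of the family below the 45.1% of all 21243 tested genes whose groups did not overlap. CNTN2 had ratios of 1.01 and 0.970. In the same neuron sums, 7 neuroepithelial and placode markers, of which 6 or 7 were detected per sample, summed to 243, 353, 352 and 594 CPM and 5 cell cycle markers to 45.5, 84.5, 60.6 and 97.9 CPM, so both were higher with PP121 in each pair. Of these neurons, 19.5, 18.4, 17.6 and 9.32% carried the nitrergic identity and 24.8, 43.7, 33.6 and 62.0% the glutamatergic identity. Cholinergic and GABAergic shares were also lower with PP121 in each pair, and serotonergic and catecholaminergic shares also higher. The part of these markers and shares in the differences of the contactins was not tested.

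**Figure D2:**
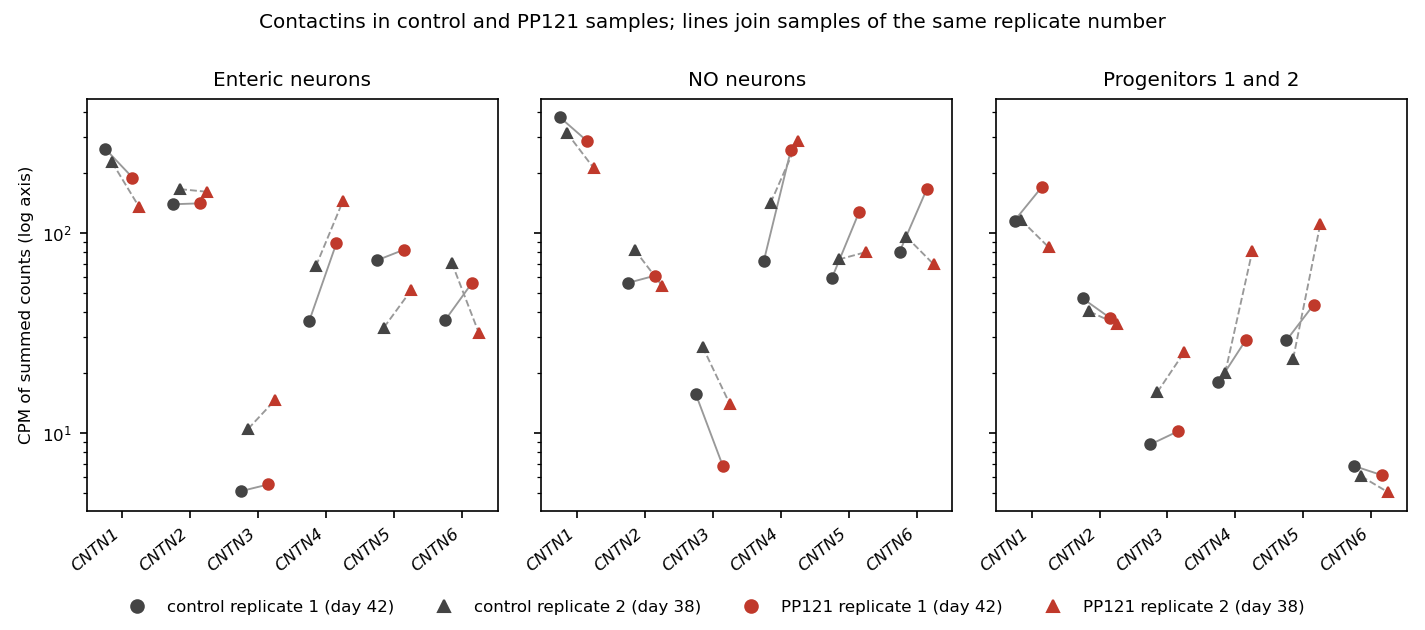
CPM of summed counts (vertical, log axis) of the 6 contactins (horizontal) in enteric neurons, NO neurons and progenitors, 1 point per sample, with lines joining the control and PP121 samples of the same replicate number. CNTN4 was higher in the PP121 sample of each pair in all 3 panels, and CNTN1 was lower in the PP121 sample of each pair in neurons and NO neurons.

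Without a block, edgeR's quasi-likelihood test called 0 of the 6 contactins in neurons, and 0.0% of all genes, at an adjusted p under 0.05. At an unadjusted p under 0.05 there were 2, CNTN1 and CNTN4, against 2549 of all 21243 genes. DESeq2 also called 0 contactins, against 0.41% of all genes. Samples of the same replicate number share a day. With that number as a block edgeR called 3 of 6, against 14.8% of all genes. CNTN4 rose by 1.23 ± 0.10 on the log2 scale (adjusted p = 4.8e-09 by edgeR, higher in 2 of 2 pairs), CNTN1 changed by −0.57 ± 0.09 (edgeR adjusted p = 0.00011, lower in 2 of 2 pairs) and CNTN5 by 0.41 ± 0.12 (edgeR adjusted p = 0.016, higher in 2 of 2 pairs); errors are standard errors. This fit has 1 residual degree of freedom and borrows its error from all genes. With classes rebuilt from clusters over all samples and the same block, CNTN4 kept its call at 1.17 (edgeR adjusted p = 0.00026), while CNTN1 at −0.40 and CNTN5 at 0.37 lost theirs. Without the neurons deposited as non-neuronal, all 3 kept theirs, CNTN4 with 1.26.

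NO neurons numbered 449, 230, 358 and 91 nuclei. In them CNTN4 measured 72.3, 141, 261 and 288 CPM, so that both PP121 samples lay above both controls, 3.60-fold and 2.04-fold within pairs. CNTN5 measured 59.2, 73.6, 126 and 80.1 CPM and CNTN3 15.6, 26.9, 6.79 and 13.9 CPM, the latter from 12 to 58 UMIs. CNTN1 measured 378, 317, 288 and 210 CPM. The groups of these 4 genes did not overlap, against 49.5% of all genes. Here the neuroepithelial and placode markers summed to 195, 281, 211 and 340 CPM and the cell cycle markers to 21.0, 18.3, 34.9 and 33.7 CPM, and their part was not tested. CNTN6 went opposite ways, from 80.7 to 166 CPM in the pair of replicate 1 and from 95.5 to 69.6 CPM in that of replicate 2.

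Here too edgeR without a block called 0 of 6 (0.0% of all genes). Its unadjusted p was under 0.05 for 3 of them, against 2131 of 15239 genes. DESeq2 called CNTN4 alone (DESeq2 adjusted p = 0.00029), against 0.84% of all genes. With the replicate block edgeR called 3 of 6, against 10.5% of all genes. CNTN4 rose by 1.58 ± 0.14 (edgeR adjusted p = 7.1e-26) and CNTN5 by 0.82 ± 0.17 (edgeR adjusted p = 4.4e-05), each in 2 of 2 pairs. CNTN6 was called with 0.58 ± 0.16 (edgeR adjusted p = 0.0058), although its pairs went opposite ways: without PP121 replicate 1 and without a block it was −0.18, and without PP121 replicate 2 it was 1.02. With doublet candidates removed and the same block, only CNTN4 remained called, at 1.53 (edgeR adjusted p = 0.00073).

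In the progenitors, classes 1 and 2 summed together, CNTN4 measured 17.9, 20.0, 29.0 and 81.5 CPM and CNTN5 29.0, 23.5, 43.7 and 111 CPM. PP121 replicate 1 was above both controls for both genes, at 1.62-fold and 1.51-fold of control replicate 1. PP121 replicate 2 was far above the other 3 samples, at 4.07-fold and 4.72-fold of control replicate 2. Cell cycle markers stood highest in that same sample, at 227, 214, 242 and 370 CPM, as did the neuroepithelial and placode markers, at 661, 716, 655 and 799 CPM, and their part was not tested. With the deposited classes the difference was in progenitor 2, where CNTN4 measured 21.3, 25.9, 39.0 and 115 CPM, whereas progenitor 1 gave overlapping groups. When classes were rebuilt from clusters over all samples, 49.4 and 48.5% of progenitor 1 nuclei left that class in PP121 replicates 1 and 2. In control replicates 1 and 2, 29.9 and 22.7% did, and of progenitor 2 nuclei 4.44 to 8.49% left theirs. The split between the 2 classes is thus not firm. In both classes summed, CNTN2 was lower in both PP121 samples, 37.7 and 35.1 against 47.1 and 40.5 CPM. These 3 genes had groups that did not overlap, against 28.6% of all genes.

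In the progenitors edgeR without a block called 0 of 6 (0.0% of all genes). CNTN4 and CNTN5 were at an unadjusted p under 0.05, as were 962 of 20260 genes. DESeq2 called CNTN5 alone, with 1.58 (DESeq2 adjusted p = 0.018), against 0.197% of all genes. With the block edgeR called both, against 1.72% of all genes: CNTN4 with 1.35 ± 0.23 (edgeR adjusted p = 0.00025) and CNTN5 with 1.39 ± 0.24 (edgeR adjusted p = 0.00026), each higher in 2 of 2 pairs. With PP121 replicate 2 left out, CNTN4 was at 0.55 and CNTN5 at 0.67, and neither was called, so the size of both rests on that sample. Whether PP121 acted differently in progenitors and neurons was tested as an interaction term. It was called by edgeR for 0 of 6 contactins (0.0% of all genes), without a block and with the sample as a block. DESeq2 called 0 as well. The fit without a block treats the 2 sums of a sample as separate samples. In it 0 contactins had an unadjusted p under 0.05, against 709 of 21787 genes. With the sample block 1 had, against 2123 of 21787 genes. Without the block the term was −0.35 ± 0.70 for CNTN4 and −1.19 ± 0.65 for CNTN5. Those errors ignore the pairing within samples and are too wide to place the 2 classes apart or together.

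For CNTN4 and CNTN1 in neurons, the share of thinned nuclei with a UMI moved with the level. CNTN4 was in 6.49% ± 2.51 (SD, n = 2) of control neurons and 11.8% ± 2.38 (SD, n = 2) of PP121 neurons, and CNTN1 in 30.2% ± 3.91 and 21.4% ± 4.87 (SD, n = 2 each). In both pairs the share of CNTN4 was higher, by 5.36 and 5.19 percentage points. In NO neurons CNTN4 was in 12.9% ± 5.05 of control and 27.0% ± 4.23 of PP121 nuclei (SD, n = 2 each). The exact two-sided permutation p was 0.333 for each of these, the smallest that 2 against 2 samples allow, and 0.667 to 0.8 after Benjamini-Hochberg adjustment over 6 genes. CNTN2 did not follow its level in the pair of replicate 2. Its share rose there by 1.17 percentage points in neurons and 0.426 in progenitors, while its level was 0.970 and 0.867 of control.

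CNTN4 and CNTN1 kept these directions across transmitter identities. CNTN4 was higher with PP121 in both pairs in 6 of the 6 identities, by 1.02-fold to 3.60-fold, and CNTN1 was lower in both pairs in 6 of 6, at 0.609 to 0.990 of control. The identities overlap, 56.5 to 68.8% of neurons carrying 2 or more, so these are not independent counts. CNTN6 went both ways, from 0.117 to 4.70 of control.

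Other genes of the pathway are given by counts from fixed lists. Without a block edgeR called 0 members of either list in neurons, NO neurons or progenitors, as it did over all genes. Of 16 contactin partners tested in neurons, 2 were at an unadjusted p under 0.05, against 2549 of all 21243 genes. The median log2 change of the 16 was 0.10, against −0.0022 over all genes. With the block it called 4 higher and 1 lower, against 14.8% of all genes: PTPRG, a phosphatase that binds several contactins, at 0.89, CNTNAP5 at 0.51, NFASC at 0.38 and CNTNAP2 at 0.30, and the matrix glycoprotein TNR at −0.79. Of 12 other immunoglobulin adhesion molecules it called 5 higher (SDK1, NEGR1, LSAMP, SDK2 and NCAM1) and NCAM2 lower. In NO neurons with the block, which called 10.5% of all genes, 5 of 15 tested partners were higher (PTPRG at 1.28, CNTNAP4 at 1.11, CNTNAP5 at 1.09, CHL1 at 1.04 and CNTNAP2 at 0.71) and 9 of the 12 adhesion molecules were higher, none of either list lower. In progenitors with the block, which called 1.72% of all genes, CHL1 at −1.08 and NCAM2 at −0.90 were lower and no member of either list was higher.

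Levels were also compared between the 2 deposited days, that is, between differentiation replicates 1 and 2. In neurons CNTN3 and CNTN2 were lower and CNTN5 higher on day 42, in both treatments. CNTN5 measured 73.0 and 82.5 CPM on day 42 against 33.6 and 51.6 CPM on day 38. CNTN3 measured 5.12 and 5.52 CPM against 10.5 and 14.6 CPM. The groups of these 3 genes did not overlap, against 39.0% of all genes. Glutamatergic neurons made up 24.8 and 33.6% of neurons on day 42 against 43.7 and 62.0% on day 38. Catecholaminergic neurons were also a smaller share on day 42 in both treatments, and the other identities a larger share. The part of these shares was not tested.

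For the days edgeR without a block called 0 of 6 in neurons (0.0% of all genes). Its unadjusted p was under 0.05 for 2 of them, against 1574 of 21243 genes. DESeq2 called 0, against 0.278%. With day and treatment in 1 model, which is the fit with the replicate block, 5 of 6 were called, against 9.49% of all genes. Day 42 over day 38 was −1.28 for CNTN3 (edgeR adjusted p = 7.4e-05), −0.87 for CNTN4 (1.2e-06), 0.83 for CNTN5 (1.5e-05), 0.30 for CNTN1 (0.041) and −0.28 for CNTN2 (0.049), each in the same direction in 2 of 2 treatments. The calls of CNTN1 and CNTN2 were lost when the neurons deposited as non-neuronal were removed. In progenitors 0 were called by edgeR without a block (0.0% of all genes). There 1 had an unadjusted p under 0.05, against 2248 of 20260 genes. DESeq2 called CNTN3, against 0.538%. CNTN3 and CNTN6 did not overlap between days, against 45.9% of all genes. With the block edgeR called CNTN3 at −1.22 (edgeR adjusted p = 0.00072) and CNTN4 at −0.98 (edgeR adjusted p = 0.0087), against 2.99%. Without PP121 replicate 2 and without a block, CNTN4 in progenitors was 0.11, the opposite sign.

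Contactins differed between the transmitter identities of neurons. Each identity was compared with the other neurons of the same sample, with the sample as a block and without the neurons deposited as non-neuronal. NO neurons had the most contactins called: CNTN4, CNTN6, CNTN3 and CNTN1 were higher and CNTN2 lower. Glutamatergic neurons were the reverse in 4 genes, with CNTN2 higher and CNTN1, CNTN4 and CNTN6 lower. The authors gave the identities from imputed expression and module scores of these same counts, and imputation draws on correlated genes, so the tests are not independent of how the identities were made, nor of one another.

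**Figure D3:**
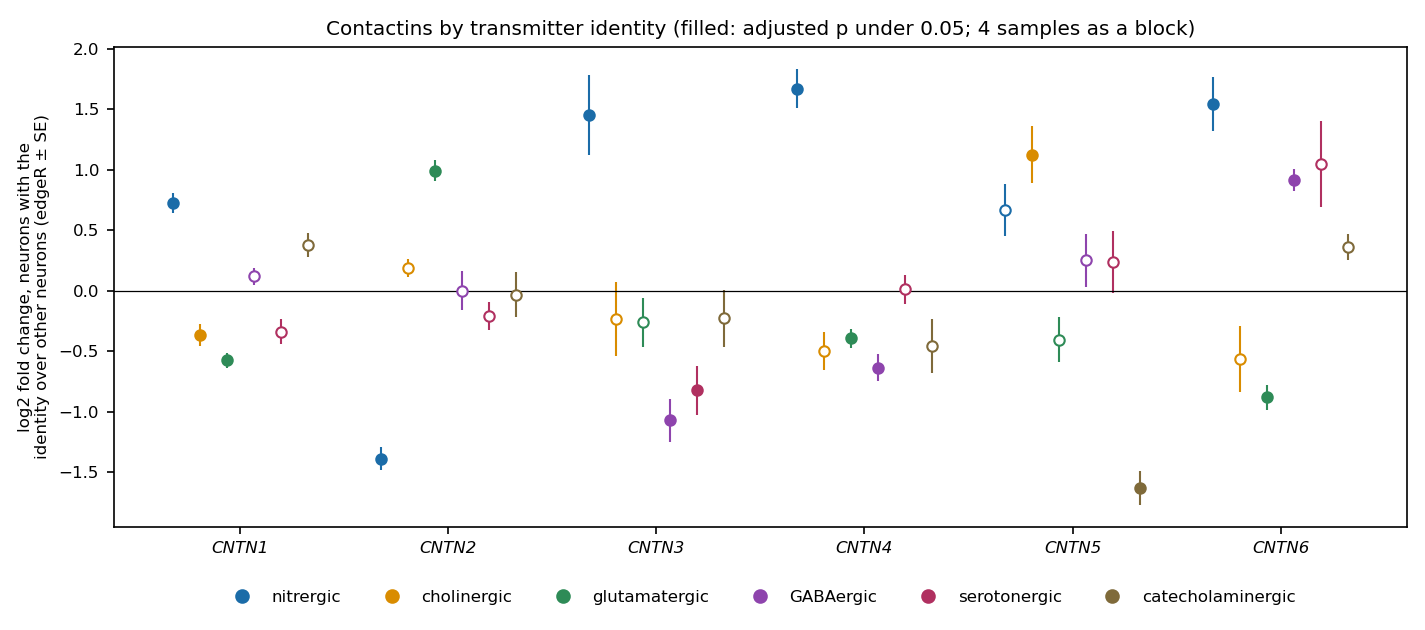
log2 fold change ± SE (vertical) of each contactin (horizontal) in neurons with an identity over the other neurons, by edgeR with the 4 samples as a block; filled points have an adjusted p under 0.05. NO neurons stand highest for CNTN1, CNTN3, CNTN4 and CNTN6 and lowest for CNTN2, and catecholaminergic neurons stand lowest for CNTN5.

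In NO neurons 5 of 6 contactins were called, against 11.7% of all genes. CNTN4 was 2.65, 2.68, 5.17 and 2.31 times its level in the other neurons in the 4 samples, or 1.67 ± 0.16 on the log2 scale (edgeR adjusted p = 2.3e-05). CNTN2 was at 0.354, 0.448, 0.361 and 0.305 of its level in the other neurons, or −1.39 ± 0.10 (edgeR adjusted p = 1.4e-06). CNTN6 was higher in 4 of 4 samples, 1.55 ± 0.22 (edgeR adjusted p = 0.00044), and so was CNTN1, 0.73 ± 0.08 (edgeR adjusted p = 6.6e-05). CNTN3 was higher in 3 of 4, 1.45 ± 0.33 (edgeR adjusted p = 0.011): it was 6.03 and 3.87 times the other neurons in control and 1.56 and 0.897 times in PP121 samples. CNTN5, 0.67 ± 0.21, was not called. DESeq2 called 5 of 6 in NO neurons, against 8.44% of all genes.

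Glutamatergic neurons had 4 of 6 called, against 14.9% of all genes. CNTN2 measured 224, 204, 209 and 202 CPM in them and 108, 126, 106 and 76.0 CPM in the other neurons, 0.99 ± 0.09 on the log2 scale (edgeR adjusted p = 1.5e-05). CNTN1 was lower in 4 of 4 samples (−0.58 ± 0.06, edgeR adjusted p = 4.3e-05), as were CNTN6 (−0.88 ± 0.10) and CNTN4 (−0.40 ± 0.08).

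The other identities differed in fewer contactins. Cholinergic neurons had 2 of 6 called, against 11.5% of all genes: CNTN5 was 1.13 ± 0.23 higher (edgeR adjusted p = 0.0063), at 149, 48.3, 92.1 and 105 CPM against 34.5, 30.3, 81.2 and 46.6 CPM, and CNTN1 was −0.37 ± 0.09. Catecholaminergic neurons had 1 of 6, against 4.8%: CNTN5 at 22.0, 17.7, 29.1 and 31.6 CPM lay below the 43.8 to 116 CPM of the other neurons in every sample (−1.63 ± 0.14, edgeR adjusted p = 6.7e-05). GABAergic neurons had 3 of 6, against 7.85%, with CNTN6 higher in 4 of 4 samples (0.92 ± 0.09) and CNTN3 (−1.07 ± 0.18) and CNTN4 (−0.64 ± 0.11) lower in 4 of 4. Serotonergic neurons had 1 of 6, against 10.7%, CNTN3 with −0.82 ± 0.20 (edgeR adjusted p = 0.027). In them CNTN6 was 4.03 and 4.30 times the other neurons in the control samples and 1.15 and 0.602 times in the PP121 samples, and it was not called.

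DESeq2 with the same sample block called 4 of 6 in glutamatergic neurons, against 7.21% of all genes, and 3 in GABAergic neurons, against 5.84%. It called 0 in cholinergic neurons, against 7.67%, 0 in serotonergic neurons, against 6.19%, and 2 in catecholaminergic neurons, against 2.81%. The calls of CNTN5 and CNTN1 in cholinergic and of CNTN3 in serotonergic neurons were thus made by edgeR only.

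Among the partners, 5 of 16 were higher and 1 lower in NO neurons, against 11.7% of all genes, among them CNTNAP2, the partner of CNTN2, at 1.19 and CNTNAP4 at 1.52. The adhesion molecules had 6 of 12 higher there, DSCAM with 1.89 and ALCAM with 1.58 in front. Glutamatergic neurons had 0 of 12 adhesion molecules higher and 9 lower, against 14.9% of all genes. Cholinergic neurons had 7 of 16 partners higher, against 11.5% of all genes, CNTNAP5 with 2.04 and PTPRG with 1.01 among them.

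The authors' subtypes of enteric neurons, EN 1 to EN 8 in control and EN A to EN I in PP121 samples, spread the contactins further. The names of the 2 sets do not correspond, so no subtype was compared between treatments. CNTN2 peaked in EN 2, at 451 and 487 CPM in control replicates 1 and 2, and in EN B, at 429 and 482 CPM in PP121 replicates 1 and 2. CNTN1 was at its lowest in EN 2 among the control subtypes, at 104 and 110 CPM, and in EN F among the PP121 subtypes, at 46.7 and 65.8 CPM. In EN 2 and EN B, CNTN5 and CNTN6 were below 20 CPM.

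**Figure D4:**
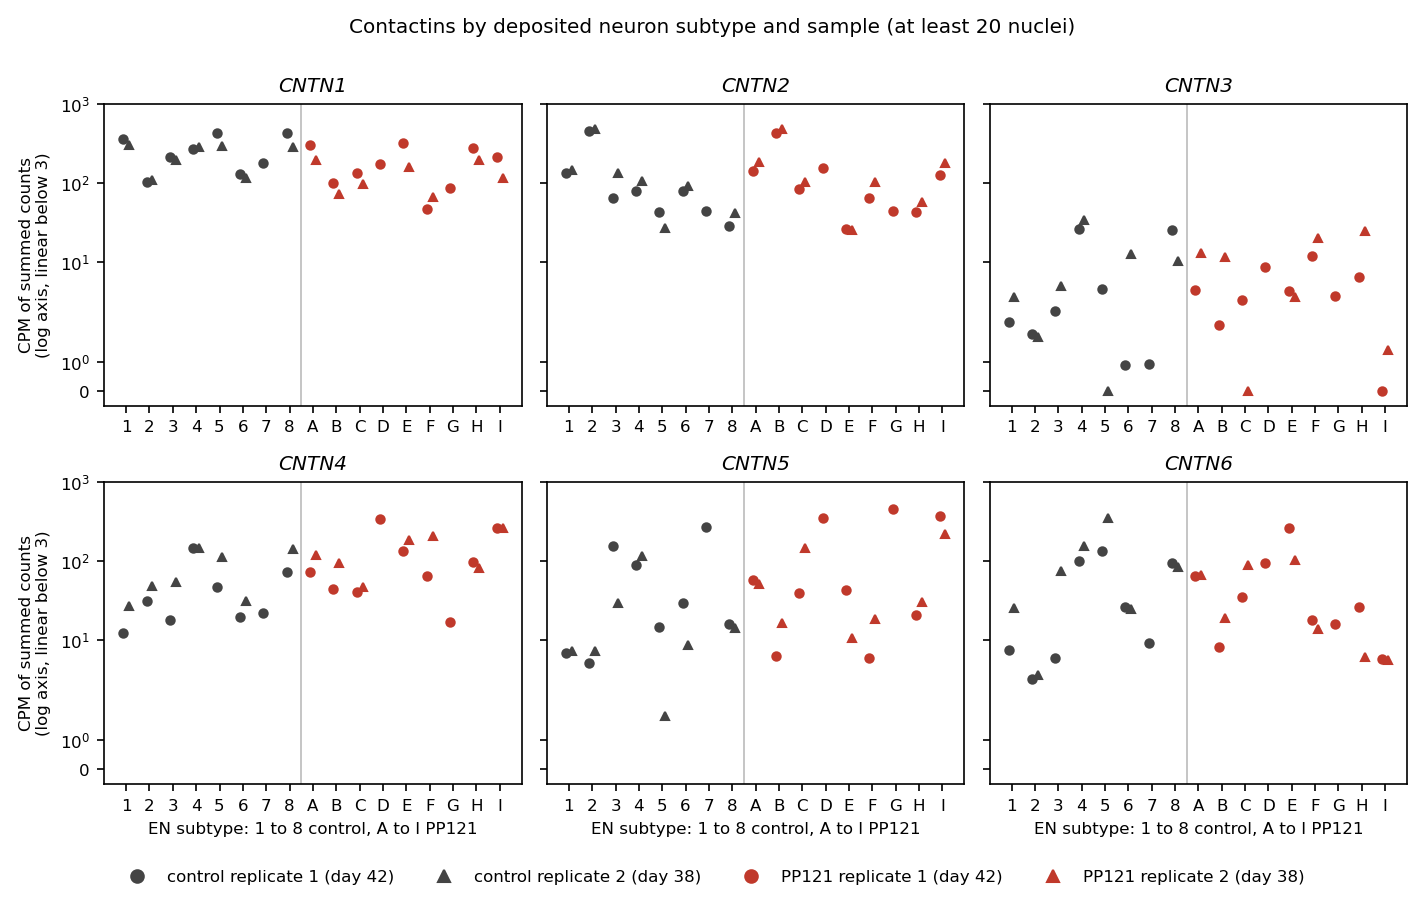
CPM of summed counts (vertical, log axis that is linear below 3) of each contactin by deposited neuron subtype (horizontal, 1 to 8 control and A to I PP121), 1 point per sample with at least 20 nuclei. CNTN2 was highest in EN 2 (451 and 487 CPM) and EN B (429 and 482 CPM), and CNTN5 reached 457 CPM in EN G, a subtype with 1 sample of at least 20 nuclei.

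CNTN6 was highest in EN 5, at 135 and 356 CPM, and in EN E, at 263 and 104 CPM. CNTN4 was highest in EN 4, at 148 and 147 CPM, and reached 266 CPM in EN I in both PP121 samples and 341 CPM in EN D of replicate 1. CNTN5 was highest in EN 7 of control replicate 1, at 272 CPM, and in EN G of PP121 replicate 1, at 457 CPM. Those 2 subtypes came almost wholly from day 42, with 253 against 9 and 99 against 1 nuclei, so their CNTN5 has no replicate. EN I held 376 and 222 CPM of CNTN5 in PP121 replicates 1 and 2, and EN 4 held the most CNTN3 in control samples, at 26.0 and 34.5 CPM.

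Genes with the most similar pattern were sought over 23 sums of at least 20 nuclei, by Pearson correlation of log2(CPM + 1) over 11661 genes of at least 10 CPM on average. The sums share 4 libraries and 6 classes, so the values are descriptions. CNTN4-AS2, which is annotated wholly within CNTN4 on the opposite strand with 0 shared exon bases, was the most like CNTN4 (r = 0.981), followed by C9orf129 (0.936) and WNK2 (0.921). CNTN2 was most like KLHL1 (0.910), ROBO3 and NRXN3 (0.909 each), CNTN1 most like CXADR (0.890), CNTN3 most like FAM122C (0.873), CNTN6 most like PATJ (0.868) and CNTN5 most like AL117381.1 (0.799). Between the contactins themselves r ran from −0.453 for CNTN4 with CNTN5 to 0.506 for CNTN4 with CNTN6.

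**Figure D5:**
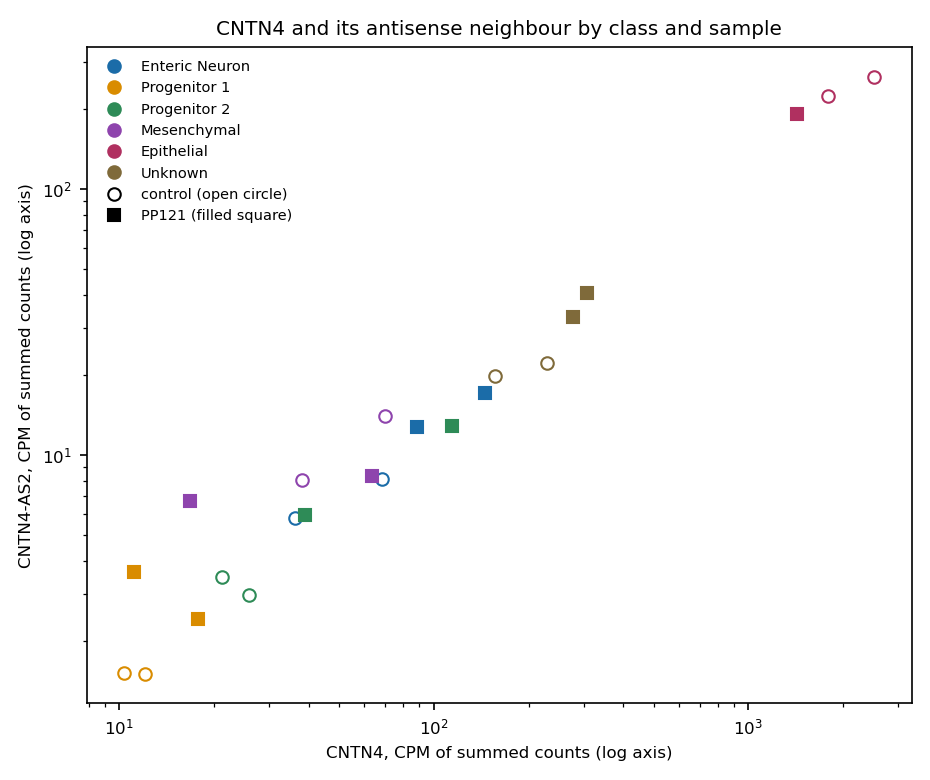
CNTN4 (horizontal) and CNTN4-AS2 (vertical) in CPM of summed counts, both on log axes, for the 23 sums of a class in a sample with at least 20 nuclei. The points rise together over all 6 classes (r = 0.981), from progenitor 1 to the deposited epithelial class.

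In neurons CNTN4-AS2 measured 5.80, 8.12, 12.8 and 17.1 CPM and, with the block, rose by 1.15 ± 0.18 with PP121 (edgeR adjusted p = 7.4e-05), higher in 2 of 2 pairs. In the deposited epithelial class it measured 224, 264, 92.8 and 191 CPM. Whether the counting used strand is not stated, so reads of CNTN4 and of its antisense genes cannot be told apart, and CNTN4-AS1 shares 685 exon bases with CNTN4. CNTN4 itself had 686 to 1492 UMIs in neurons per sample against 90 to 215 of CNTN4-AS2.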

How the data were processed

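Nuclei of 4 ganglioid samples were profiled. Per the study's methods, the authors assigned reads with kallisto and bustools and analysed them in Seurat, while the submitters' processing notes list Cell Ranger, Seurat 4.0.4 and GRCh38; which made the matrices, and whether introns or strand were counted, is not given in the sources used here. The deposited values are counts of UMIs per gene and nucleus, whole in every entry. The percent of mitochondrial and ribosomal counts was deposited by the authors and enters no result. Depth per sample is given in the report. Sample groups came from the labels; a deposited sample column that differs from them for the controls was not used. Deposited classes, identities and days were taken as given, and nuclei without a class were left out. NO neurons rest on imputed NOS1 above 0 and a positive module score.

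Counts were summed per class and sample and tested over all genes with edgeR 4.0.16 (R 4.3.3; TMM, its filter on low counts, quasi-likelihood, two-sided, Benjamini-Hochberg at 0.05), without a block and with the replicate block where it changed a call. Same-numbered samples deviated together (r = 0.532 over all nuclei, 0.421 in neurons, 0.284 in progenitors, 0.208 in NO neurons). For the interaction the block was the sample. Intervals (95%) cover counting error only. Alternatives were DESeq2 1.42.0, other filters, joint clusters without the contactins (scanpy 1.11.5, 2000 variable genes, 30 components, resolution 1), removal of the 5% of nuclei with the highest Scrublet scores, other depths and leaving out samples. Fits were tested on simulated data. Named genes were the 6 contactins, members of 2 lists that were called or among the 3 of highest level, and for each contactin the genes of most similar pattern. The contactins and lists were chosen with earlier results of these data known.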

Additional observations from a re-analysis of the deposited data

Results flagged for a closer look

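In 102 contrasts of single contactins, 9 had every sample of one group on one side and every sample of the other group on the opposite side. None of these differences was tested, and all rest on 2 samples against 2. No such count was made over all genes, so whether 9 of 102 is more than other genes give cannot be said. Between classes, CNTN1 was at 0.719 and 0.596 of control with PP121 in the replicate 1 and 2 pairs of neurons and at 1.03 and 1.20 in mesenchymal nuclei, where the first pair held 7 and 6 UMIs. CNTN4 was at 2.45 and 2.13 of control in neurons and at 0.571 and 0.566 in the deposited epithelial class of 9 to 37 nuclei.

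The other 7 are ratios of an identity to the other neurons of its sample. By treatment, CNTN5 in glutamatergic neurons was at 0.474 and 0.521 in control replicates 1 and 2 and at 1.13 and 1.16 in PP121 replicates 1 and 2. CNTN4 in serotonergic neurons was at 1.09 and 1.35 in control and at 0.796 and 0.944 in PP121 samples. In catecholaminergic neurons CNTN4 was at 1.34 and 1.03 in control and at 0.649 and 0.360 in PP121 samples.

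By day, each value below is given for control, then PP121. CNTN3 in glutamatergic neurons was at 1.24 and 1.14 on day 42 and at 0.608 and 0.687 on day 38. CNTN3 in catecholaminergic neurons went the other way, with 0.406 and 0.605 on day 42 and 1.18 and 1.12 on day 38. CNTN2 in GABAergic neurons was at 0.548 and 0.993 on day 42 and at 1.13 and 1.37 on day 38. CNTN5 in serotonergic neurons was at 2.60 and 1.09 on day 42 and at 0.875 and 0.586 on day 38.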

How the results depend on the processing

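With 2 samples a group the fits have few residual degrees of freedom, 2 without and 1 with the block, and no day or treatment had more than 1 line. A fit was counted as unchanged if it kept its direction and its side of the threshold, and a share if it kept its direction. A pair ratio was unchanged if its median moved by less than the SD over samples. Of 551 values of single contactins or pairs at other settings, 439 were unchanged and 26 changed sign. Of 336 with a sample left out, 266 were unchanged and 39 changed sign. In such a fit the lone sample of an arm is assumed to vary like the other group. Classes from joint clusters, doublet removal and exclusion of non-neuronal neurons in the blocked fits, and scaling per exon, were added after seeing the data. Where no cause is given below, the cause was not tested.

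Pairing by replicate block gave 3 called contactins for PP121 in neurons, 2 in progenitors and 3 in NO neurons, against 0 without it. For the days it gave 5 in neurons and 2 in progenitors, against 0 without it. Over all genes the replicate block called 14.8, 1.72, 10.5, 9.49 and 2.99% in the same order, against 0.0% without it. The sample block changed no call of the interaction, where CNTN6 became 0.068. With the block and joint clusters the 5 counts of contactins were 1, 2, 5, 3 and 3. Genes called there numbered 737 of 21273, 734 of 20325, 1618 of 15159, 1226 of 21273 and 819 of 20325. With the block and no doublet candidates the contactins called were 3, 2, 1, 3 and 3. Genes called there numbered 2160 of 20879, 454 of 19860, 728 of 14907, 1173 of 20879 and 727 of 19860. With the block and no neurons deposited as non-neuronal, PP121 and day in neurons gave 3 and 3, against 2306 and 1429 of 20882 genes. DESeq2 called 1 contactin for PP121 in progenitors, 1 in NO neurons, 1 for the day in progenitors, 0 in cholinergic and in serotonergic and 2 in catecholaminergic neurons. Over all genes it called 0.197, 0.84, 0.538, 7.67, 6.19 and 2.81% in that order. Without a filter on low counts the counts were 2 for PP121 in progenitors, 2 in NO neurons, 1 for the day in neurons, 4 cholinergic, 3 serotonergic and 4 catecholaminergic. Genes called there numbered 270 of 31187, 752 of 28242 and 158 of 31648, then 2933, 3213 and 1669 of 31545. Without the sample block, 2 were called in nitrergic, 1 in glutamatergic and 0 in each of the cholinergic, GABAergic, serotonergic and catecholaminergic comparisons. Genes called there numbered 629 of 17714, 124 of 17809, 363 of 18286, 414 of 18733, 1 of 18052 and 18 of 17195. CNTN2 over CNTN1 was 0.739 in CPM and 0.311 per kb of exon.

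With 1 sample left out, the PP121 and day fits set a lone sample against 2, so only log2 values are given for them. The identity fits keep both sums of every other sample. In them the counts of contactins ranged from 1 to 3 cholinergic, 0 to 1 serotonergic and 1 to 3 catecholaminergic. Genes called there ranged from 1062 to 2413, 140 to 2586 and 226 to 1165. The share of a lone sample easily falls outside those of the others, and no such count was made over all genes. Non-overlap of shares with 1 sample left out is therefore not counted.

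Signs turned in these log2 values. Under joint clusters, without and with the block, CNTN2 with PP121 in neurons was −0.0022 and −0.0027, CNTN1 in progenitors −0.25 and −0.28, CNTN6 in progenitors 0.13 and 0.12, and the day in progenitors −0.11 and −0.095 for CNTN2 and −0.19 and −0.19 for CNTN6. Without doublet candidates, without and with the block, CNTN6 in progenitors was 0.12 and 0.12 with PP121 and −0.078 and −0.077 by day. Without neurons deposited as non-neuronal the interaction of CNTN6 was 0.011, and 0.12 with the sample block. CNTN2 in GABAergic neurons was 0.012 by DESeq2 and 0.066 without the sample block. CNTN4 in serotonergic neurons was −0.034 without the sample block, −0.020 without the filter and −0.039 without doublet candidates. Differences in the share of progenitors with a UMI, in percentage points, turned for CNTN1 at 4000 UMIs (−0.29) and unthinned (−1.80) and for CNTN6 at 1000 (0.022) and 4000 UMIs (0.25).

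With 1 sample left out, signs also turned over these ranges. For PP121 in neurons they were −0.13 to 0.19 for CNTN2, −0.46 to 1.03 for CNTN3, −0.048 to 1.00 for CNTN5 and −0.70 to 0.34 for CNTN6. In progenitors CNTN1 ran from −0.39 to 0.49 and CNTN3 from −0.35 to 1.09, and in NO neurons CNTN2 from −0.39 to 0.18 and CNTN6 from −0.18 to 1.02. The interaction ran from −0.63 to 0.22 for CNTN4 and −0.50 to 0.56 for CNTN6. By day, neurons gave −0.041 to 0.66 for CNTN1 and −0.65 to 0.48 for CNTN6, and progenitors −0.11 to 0.20 for CNTN2, −1.90 to 0.11 for CNTN4, −1.72 to 0.50 for CNTN5 and −0.033 to 0.25 for CNTN6. Among identities the ranges were −0.59 to 0.018 for CNTN3 in cholinergic, −0.15 to 0.27 for CNTN2 and −0.18 to 0.46 for CNTN5 in GABAergic, −0.11 to 0.14 for CNTN4 and −0.24 to 0.53 for CNTN5 in serotonergic, and −0.37 to 0.18 for CNTN2 in catecholaminergic neurons. Shares, in percentage points, ran from −0.57 to 2.44 for CNTN2, −0.15 to 0.56 for CNTN3 and −3.73 to 0.037 for CNTN6 in neurons, and from −3.68 to 5.29 for CNTN1 and −2.19 to 0.43 for CNTN2 in progenitors.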
